A study of Homo sapiens with 8 samples.

Results

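The 38 genes described here are nucleolar, nucleotide-synthesis and growth genes that are known to be induced by the transcription factor MYC, and they were followed in primary effusion lymphoma cell lines treated with lenalidomide. Members were found on the arrays by gene symbol, from a list drawn up with earlier results of these data known, and 36 of the 38 had at least 1 named probe, 57 probes in all. No probe was named here for GNL3 or WDR43. The single probe of NPM1 was not above background on any array, so 35 members with 54 probes were tested among 12864 genes. A further check on low values, above background on both arrays of every group, was met by 34 of the 35, all but TCOF1.

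Primary effusion lymphoma is a B-cell lymphoma of body cavities whose cells carry Kaposi sarcoma herpesvirus, and BC3 and BCBL1 are established lines of it. Lenalidomide binds the ubiquitin ligase adaptor cereblon and so sends certain lymphoid transcription factors to degradation. Each line was cultured in the same medium with DMSO, the solvent control, or with 5 µM lenalidomide, and total RNA was read on Illumina bead arrays, 2 arrays for each of the 4 groups and 8 in all. The 2 arrays of a group are technical replicates per the series' design text, so p-values measure the spread between arrays, and each line stands for itself only. The time in drug was not given in the sources used here.

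MYC pairs with MAX and binds the E-box CACGTG in the promoters of many genes. Much of its growth programme converges on the nucleolus, where RNA polymerase I copies ribosomal DNA, small nucleolar ribonucleoproteins (snoRNPs) modify the transcript, and assembly factors fold and cleave it into the small and large subunits. Nucleotide synthesis, one-carbon metabolism, iron uptake, protein import and mitochondrial chaperones are induced with it in growing B cells.

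The promoter windows of 5 members are shown because they carry the pattern that the E-box search gave: members with 3 E-boxes, a pair of genes that share 1, and the members that changed most under the drug. Each window runs from 250 bases before to 50 bases after a RefSeq start on GRCh38.p14, 5′ to 3′ on the gene's strand, and capitals mark each CACGTG. CDK4, the cyclin D-dependent kinase of the cell cycle (chr12:57752261-57752560, minus strand), and APEX1, the base-excision repair endonuclease (chr14:20454976-20455275, plus strand), each held 3. The window of HSPE1, the mitochondrial co-chaperonin (chr2:197500129-197500428, plus strand), shared its E-box with that of the divergent gene HSPD1, its partner chaperonin. NOC3L (chr10:94362890-94363189, minus strand) held 1 E-box after its start, and NOP16 (chr5:176388549-176388848, minus strand) held none.
CDK4: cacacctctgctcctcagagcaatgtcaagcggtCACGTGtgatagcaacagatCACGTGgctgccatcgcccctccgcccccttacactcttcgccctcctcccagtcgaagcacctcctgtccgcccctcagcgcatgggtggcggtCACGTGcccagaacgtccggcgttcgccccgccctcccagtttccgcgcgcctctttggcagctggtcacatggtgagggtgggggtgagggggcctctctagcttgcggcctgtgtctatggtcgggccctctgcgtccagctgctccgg
APEX1: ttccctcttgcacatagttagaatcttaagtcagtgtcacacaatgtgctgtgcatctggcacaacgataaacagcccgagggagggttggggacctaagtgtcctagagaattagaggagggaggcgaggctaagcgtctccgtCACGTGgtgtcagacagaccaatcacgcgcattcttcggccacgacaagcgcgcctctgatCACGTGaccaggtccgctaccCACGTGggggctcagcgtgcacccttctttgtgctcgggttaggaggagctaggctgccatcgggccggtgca
HSPE1: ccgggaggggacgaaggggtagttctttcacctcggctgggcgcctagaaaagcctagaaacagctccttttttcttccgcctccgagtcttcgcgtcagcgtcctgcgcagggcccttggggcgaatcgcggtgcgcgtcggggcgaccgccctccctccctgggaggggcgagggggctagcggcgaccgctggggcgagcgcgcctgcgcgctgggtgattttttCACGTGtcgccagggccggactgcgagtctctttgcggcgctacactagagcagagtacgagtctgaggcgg
NOC3L: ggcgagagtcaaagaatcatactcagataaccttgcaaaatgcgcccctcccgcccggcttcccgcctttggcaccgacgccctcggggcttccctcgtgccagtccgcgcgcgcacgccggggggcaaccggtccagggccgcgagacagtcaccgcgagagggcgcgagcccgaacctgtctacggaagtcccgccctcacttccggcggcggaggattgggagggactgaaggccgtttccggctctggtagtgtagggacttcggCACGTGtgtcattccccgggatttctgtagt
NOP16: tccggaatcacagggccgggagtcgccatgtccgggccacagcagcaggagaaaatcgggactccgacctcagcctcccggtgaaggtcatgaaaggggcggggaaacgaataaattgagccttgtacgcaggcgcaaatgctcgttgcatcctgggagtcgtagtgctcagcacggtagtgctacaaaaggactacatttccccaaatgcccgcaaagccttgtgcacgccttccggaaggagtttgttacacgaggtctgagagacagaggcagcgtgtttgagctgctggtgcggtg

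Of the 38 members, 33 matched the promoter table, and 19 of these (57.6%) held CACGTG in at least 1 window, against 8.77% of the 27305 genes in the table. Among genes tested on the arrays, 17 of 30 members (56.7%) and 1259 of 10219 genes (12.3%) held it. The motif reads the same on both strands, and since the members were picked as MYC-induced genes, its share among them is no independent result. A second motif, CACGCG on either strand, was found in 6 of 33 members (18.2%) and in 13.5% of all genes. Many E-boxes of members lay just after the start: 11 of 23 (47.8%) began between base 1 and base 50 after it, against 312 of 2821 (11.1%) in all windows. This was the placement in FBL, BYSL, MRTO4, MYBBP1A, NME1, NOP2, NOC3L, PES1, SLC19A1, GNL3 and WDR43. The others began before the start, as far as −216 in CDK4. The E-box shared by HSPD1 and HSPE1 is counted in both of their windows. A window with 3 or more E-boxes was found for 30 genes (0.11%), CDK4 and APEX1 among them. The windows of NOP16, NCL and POLR1B held none, which says only that these letters are not in those windows.

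**Figure D1:**
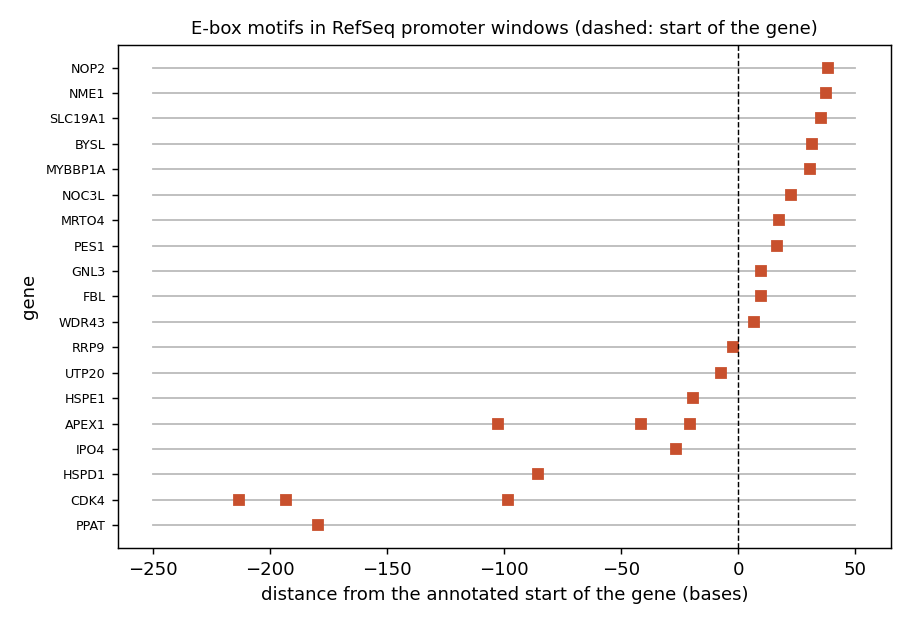
Centre of each CACGTG in the promoter windows of the 19 members that hold it, 1 line per gene, in bases from the annotated start (dashed). CDK4 and APEX1 have 3 marks each before the start, and 11 of the 23 marks lie in the 50 bases after it.

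The lines were checked against their labels. Markers of plasma cells and immunoblasts were present, with 7 of 8 genes that had a probe above background in every group, PRDM1, IRF4, XBP1, CD38 and SDC1 among them, while 1 or 2 of 6 mature B-cell markers passed. T and NK cell markers were above background for 1 or 2 of 9 genes, with a summed intensity of 2300 to 2560 in the 8 arrays. Myeloid markers passed for 3 or 4 of 7, with a summed intensity of 2080 to 2300 in BC3 under DMSO, 2870 to 3520 in BC3 under lenalidomide and 1900 to 2090 in BCBL1. Epithelial, stromal and endothelial markers passed for 3 to 6 of 8, with a summed intensity of 11700 to 14600 in BC3 against 1890 to 2120 in BCBL1. Between the lines EPCAM differed by −6.17 and CDH1 by −1.90 under DMSO, while KRT8 (0.15), KRT18 (0.04) and COL1A2 (0.28) did not pass the test. The markers called in both lines under lenalidomide, by limma at an adjusted p under 0.05, were KRT8, which rose by 1.86 in BC3 and 1.49 in BCBL1, CDH1 (1.03 and 0.58), CD2 (0.61 and 0.93) and TNFRSF17, which changed by −0.78 and −0.64. In BC3 alone the test also called PTPRC (0.66), CD68 (0.67) and CD3E (−0.52), and none of these passed the test of the difference between lines. The part of these markers in the members' changes was not tested. Array medians ran from 137 to 153 and 47.0 to 51.2% of probes were above background, so no array stood apart. NPM1, the nucleolar chaperone nucleophosmin, had intensities of 120 to 139 where the arrays' background limits were 138 to 153.

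Under lenalidomide the members were mostly lower in both lines, by small amounts. In BC3 their median log2 change was −0.25 against −0.01 over all genes tested, and 33 of 35 were below 0, as were 52.9% of all genes. In BCBL1 the median was −0.14 against −0.01, and 29 of 35 were below 0, against 52.2% of all genes. In bulk RNA, fewer cells that express a gene and less RNA per cell cannot be told apart. Relative to its line's mean, the median member stood at 0.13 and 0.14 on the BC3 DMSO arrays and at −0.13 on both lenalidomide arrays. In BCBL1 the median member stood at 0.06 and 0.08 under DMSO and at −0.04 and −0.08 under lenalidomide. The arrays of each line thus separated by treatment in the members' median. All genes together stayed within −0.01 and 0.01 on every array, which quantile normalization largely sets in advance.

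**Figure D2:**
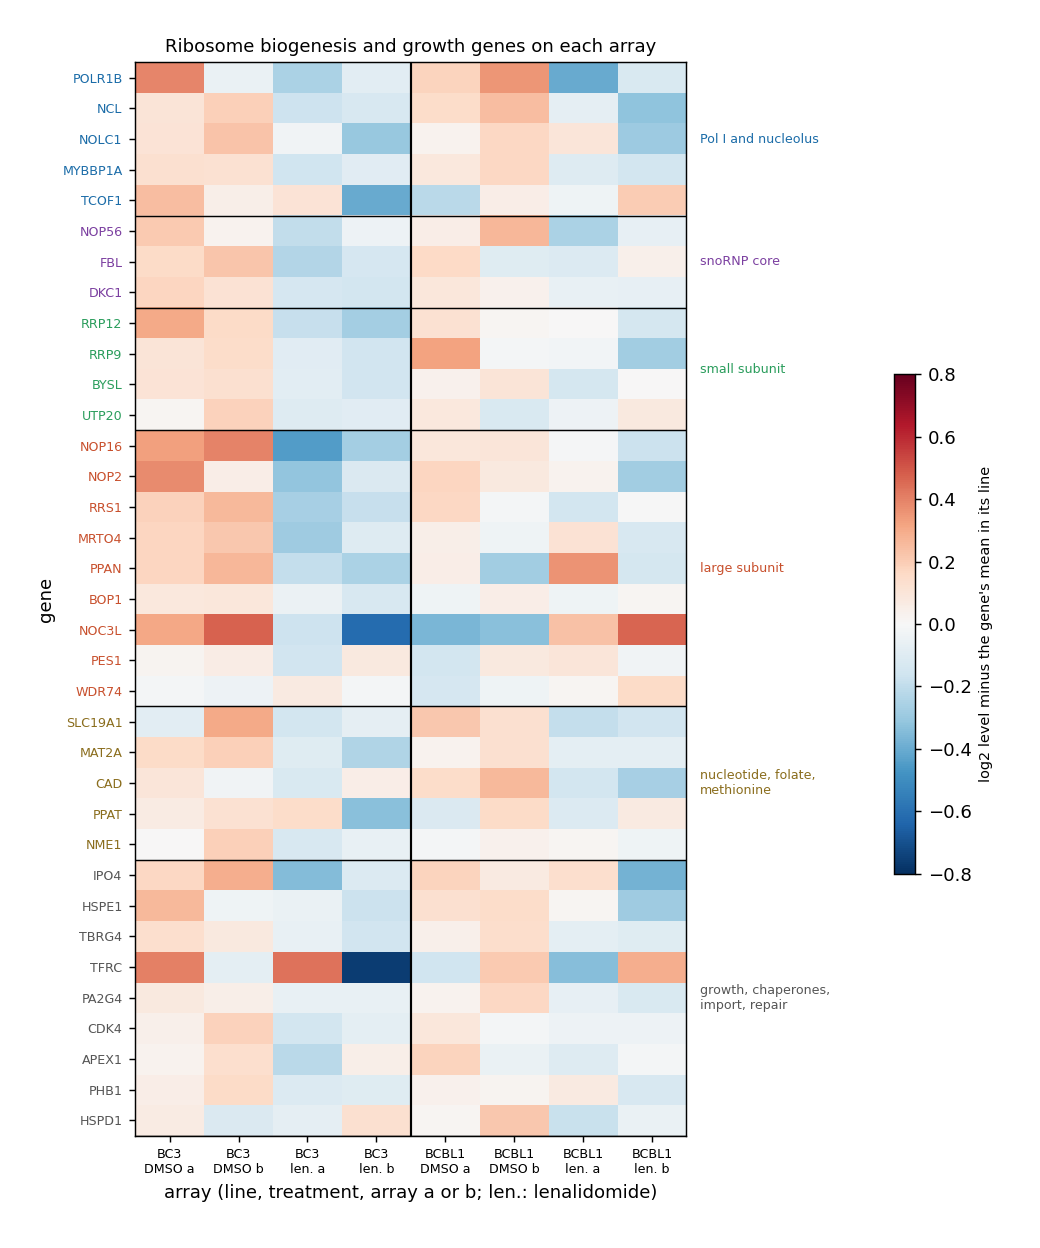
Log2 level of each of the 35 tested members on each of the 8 arrays, as the difference from that gene's mean in its own line (log2 units), ordered by role. Most rows pass from above the line's mean under DMSO to below it under lenalidomide (median 0.13 and 0.14 to −0.13 in BC3), and NOC3L runs the opposite way in BCBL1.

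Single members rarely passed the test across all genes. With limma and a Benjamini-Hochberg adjusted p under 0.05, 2 of 35 members fell in BC3 (background 1.18% of genes lower) and 0 rose (background 3.19%). At an unadjusted p under 0.05, 14 members were lower (background 7.92%) and 0 higher (background 8.88%). The 2 arrays of each group did not overlap for 26 members that were lower (background 25.6%) and 1 that was higher, WDR74 (background 22.9%). In BCBL1, 0 members fell (background 0.731%) and 1 rose (background 2.15%) by limma. At an unadjusted p under 0.05, 6 BCBL1 members were lower (background 7.63%) and 1 was higher (background 8.54%). Arrays of BCBL1 did not overlap for 18 members that were lower (background 23.7%) and 2 that were higher (background 21.2%).

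Taking the mean effect over both lines, 3 members fell, NOP16, POLR1B and NCL (background 2.40% of genes lower), and 0 rose (background 4.84%) by limma at an adjusted p under 0.05. Of the 35 mean effects, 34 were below 0 (background 53.0%). At an unadjusted p under 0.05, 20 members were lower (background 11.0%) and 0 higher (background 11.1%). In both lines at once, the arrays of the treatments did not overlap for 15 members that were lower (background 8.99%) and for 1 that was higher, WDR74 (background 8.46%). With the cell line as the replicate, 0 of 35 members fell (background 0.319%) or rose (background 1.51%) by limma, and 13 were lower at an unadjusted p under 0.05 (background 6.42%). In that fit the adjusted p was 0.173 for NOP16, 0.109 for POLR1B and 0.188 for NCL.

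**Figure D3:**
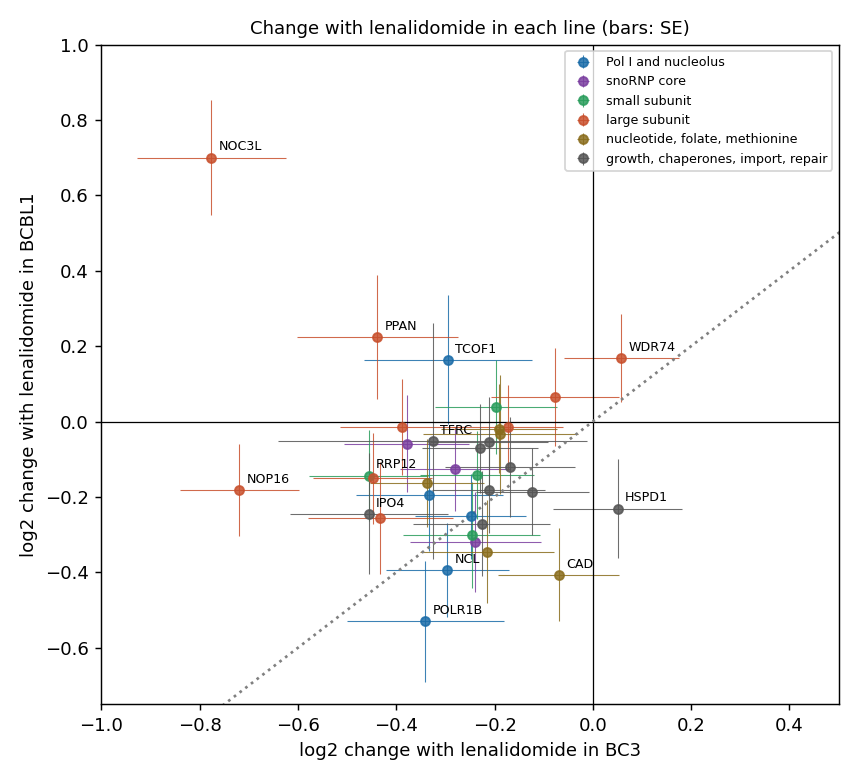
Log2 change under lenalidomide in BC3 (x axis) and in BCBL1 (y axis) for the 35 members, coloured by role, with bars for the SE and a dotted line of equal change. Of the members, 28 lie below 0 in both lines, 1 (WDR74) lies above 0 in both, and NOC3L stands alone at −0.78 and 0.70.

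Members of RNA polymerase I transcription and nucleolar organisation were lower in 5 of 5 tested genes in BC3 (median −0.30, background 52.9%). In BCBL1 they were lower in 4 of 5 (median −0.25, background 52.2%). POLR1B, a catalytic core subunit of RNA polymerase I, had log2 levels of 8.21 and 7.76 under DMSO and 7.56 and 7.73 under lenalidomide in BC3. In BCBL1 it stood at 8.92 and 9.10 under DMSO and at 8.34 and 8.62 under the drug. No lenalidomide array reached a DMSO array of its line, though in BC3 the nearest arrays, 7.76 and 7.73, almost touched. The log2 change was −0.34 ± 0.16 (SE) in BC3 with an adjusted p of 0.306 and −0.53 ± 0.16 in BCBL1 with an adjusted p of 0.110, and the mean effect was −0.44 ± 0.11 with a limma adjusted p of 0.0347. NCL, nucleolin, an RNA-binding protein of the nucleolus, had levels of 13.24 and 13.33 under DMSO and 12.97 and 13.01 under lenalidomide in BC3. In BCBL1 its levels were 13.27 and 13.37 under DMSO and 13.05 and 12.80 under lenalidomide. NCL was thus lower on all 4 treated arrays, by −0.30 ± 0.13 in BC3 (adjusted p = 0.247) and −0.39 ± 0.13 in BCBL1 (adjusted p = 0.127), and its mean effect was −0.35 ± 0.09 with a limma adjusted p of 0.0328.

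The calls of POLR1B and NCL rested on few arrays. The mean effect of POLR1B lost its call without BC3 DMSO array a (−0.32, adjusted p = 0.138), either BC3 lenalidomide array (0.112 and 0.0568), either BCBL1 DMSO array (0.0501 and 0.106) or BCBL1 lenalidomide array a (0.116). That of NCL lost it without any one array except BCBL1 lenalidomide array a, with adjusted p-values of 0.0556 to 0.121, and both calls were lost with a background offset of 16 (0.0921 and 0.0825) or the authors' deposited log2 table (0.102 and 0.0920). MYBBP1A, a MYB-binding repressor and nucleolar protein, changed by −0.25 ± 0.11 in each line, with adjusted p-values of 0.288 and 0.292. NOLC1, a chaperone of snoRNPs, changed by −0.33 in BC3 and −0.19 in BCBL1. TCOF1, treacle, which couples ribosomal DNA transcription to processing, was above background on 1 of 2 arrays in BC3 under lenalidomide and in BCBL1 under DMSO, so its changes of −0.29 and 0.16, counted above, rest partly on values at background. Its arrays overlapped in both lines.

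The snoRNP core members were below 0 in 3 of 3 genes in each line (background 52.9% in BC3 and 52.2% in BCBL1). Their median was −0.28 in BC3 and −0.13 in BCBL1. FBL, fibrillarin, the ribose methyltransferase, changed by −0.38 ± 0.13 in BC3 (adjusted p = 0.135) and by −0.06 in BCBL1. NOP56, which scaffolds the same particle, had levels of 13.34 and 13.16 under DMSO and 12.93 and 13.09 under lenalidomide in BC3. In BCBL1, NOP56 had 13.24 and 13.45 under DMSO and 12.93 and 13.12 under lenalidomide, lower on both arrays, a change of −0.32 ± 0.13 (adjusted p = 0.250). DKC1, dyskerin, the pseudouridine synthase, was tightly spread, at 12.64 and 12.58 against 12.33 and 12.32 in BC3, a change of −0.28 ± 0.11 (adjusted p = 0.213). In BCBL1 DKC1 changed by −0.13, and none of the 3 genes passed the test in either line.

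The small subunit members were below 0 in 4 of 4 tested genes in BC3 (median −0.24, background 52.9%). In BCBL1 they were below 0 in 3 of 4 (median −0.14, background 52.2%). RRP12, which in yeast takes part in the nuclear export of pre-ribosomes, had levels of 9.24 and 9.09 under DMSO and 8.75 and 8.67 under lenalidomide in BC3. In BCBL1, RRP12 had 9.75 and 9.64 under DMSO and 9.62 and 9.48 under lenalidomide. The arrays did not overlap in either line, and the change was −0.46 ± 0.12 in BC3 (adjusted p = 0.0540) and −0.14 ± 0.12 in BCBL1 (adjusted p = 0.616). RRP9, a protein of the small nucleolar RNA particle that guides early cleavage, had levels of 7.93 and 7.98 under DMSO and 7.74 and 7.68 under lenalidomide in BC3. In BCBL1, RRP9 stood at 7.73 and 7.39 under DMSO and at 7.39 and 7.13 under lenalidomide, nearly touching, a change of −0.30 ± 0.14 (adjusted p = 0.312) after −0.25 in BC3. With single arrays left out the RRP9 change in BCBL1 ranged from −0.47 without DMSO array b to −0.13 without DMSO array a, and was −0.17 without lenalidomide array b. BYSL, bystin, changed by −0.24 and −0.14, and UTP20 by −0.20 and 0.04.

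The large subunit assembly members held the largest changes and the widest spread. In BC3 8 of 9 were below 0 (background 52.9%), with a median of −0.43 against −0.01 over all genes. In BCBL1 5 of 9 were below 0 (background 52.2%), with a median of −0.01 against −0.01, so both were near the background there. NOP16, whose yeast counterpart is an assembly factor of the large subunit, had levels of 10.66 and 10.73 under DMSO and 9.89 and 10.06 under lenalidomide in BC3. In BCBL1, NOP16 stood at 10.55 and 10.56 under DMSO and at 10.45 and 10.29 under lenalidomide. It fell in BC3, by 0.72 ± 0.12 on the log2 scale (limma adjusted p = 0.00410), while the change in BCBL1 was −0.18 ± 0.12 (adjusted p = 0.501). The mean effect of NOP16 was −0.45 ± 0.09 (limma adjusted p = 0.00617), and the difference between lines, 0.54 ± 0.17, did not pass (adjusted p = 0.281). Without BC3 DMSO array b the BC3 call was lost (−0.68, adjusted p = 0.0572).

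NOC3L went in opposite directions in the lines. Its yeast counterpart takes part in large subunit assembly and in the start of DNA replication. In BC3 its log2 levels were 10.16 and 10.32 under DMSO and 9.69 and 9.24 under lenalidomide, so both treated arrays lay below both controls. In BCBL1 they were 9.91 and 9.94 under DMSO and 10.51 and 10.74 under lenalidomide, above both controls. The log2 change was −0.78 ± 0.15 in BC3 (limma adjusted p = 0.0106) and 0.70 ± 0.15 in BCBL1 (limma adjusted p = 0.0269), and the difference was 1.48 ± 0.22 (adjusted p = 0.00718), the 1 member called for a difference between lines with a positive sign (background 0.171%), with 0 called negative (background 0.319%). At an unadjusted p under 0.05, 3 members had a positive difference (background 4.98%) and 0 a negative one (background 5.30%). The NOC3L call in BC3 was lost without BC3 DMSO array b (adjusted p = 0.123) or BC3 lenalidomide array b (−0.55, adjusted p = 0.127). That in BCBL1 was lost without any 1 of its 4 arrays (adjusted p = 0.0561 to 0.198), and the difference without BCBL1 lenalidomide array b (1.36, adjusted p = 0.0509), all in the same direction. All 3 calls were lost with a background offset of 16 or with the authors' deposited log2 table, which gave 1.56 for the difference (adjusted p = 0.0901).

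**Figure D4:**
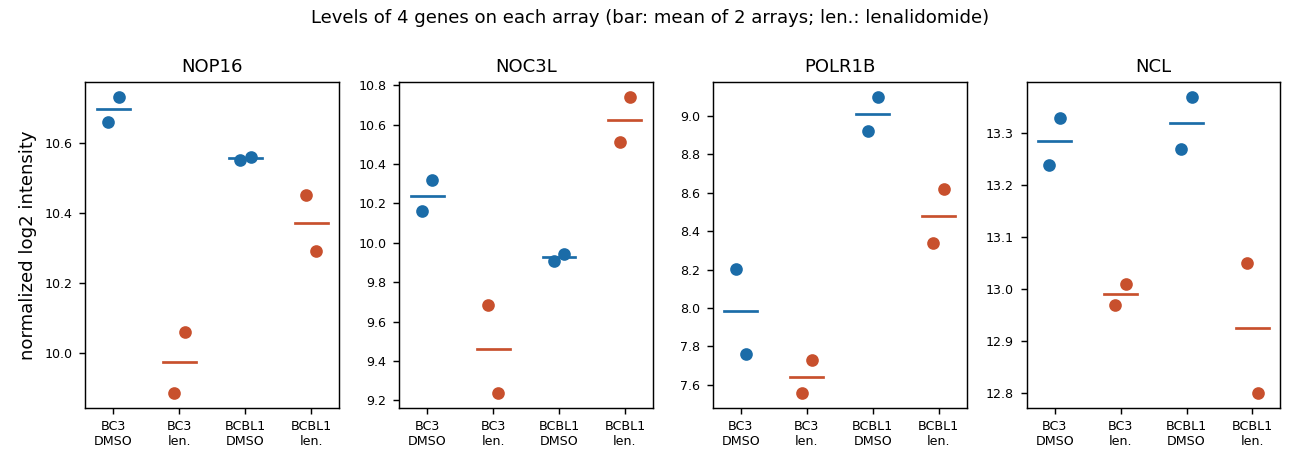
Log2 level of NOP16, NOC3L, POLR1B and NCL on each of the 8 arrays, by line and treatment, with a bar at each group's mean of 2 arrays. NOC3L is lower under lenalidomide in BC3 (10.16 and 10.32 to 9.69 and 9.24) and higher in BCBL1 (9.91 and 9.94 to 10.51 and 10.74), and the other genes are lower in both lines.

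RRS1, an assembly factor of the large subunit, had levels of 10.86 and 10.93 under DMSO and 10.41 and 10.49 under lenalidomide in BC3. In BCBL1, RRS1 had 11.61 and 11.43 under DMSO and 11.30 and 11.44 under lenalidomide, which overlapped. The change was −0.45 ± 0.12 in BC3 (adjusted p = 0.0589) and −0.15 ± 0.12 in BCBL1 (adjusted p = 0.593). PPAN, whose yeast counterparts act in early large subunit assembly, had 9.52 and 9.61 under DMSO and 9.16 and 9.10 under lenalidomide in BC3. In BCBL1, PPAN had 8.82 and 8.48 under DMSO and 9.12 and 8.62 under lenalidomide, again with overlap. Its change was −0.44 ± 0.16 in BC3 (adjusted p = 0.183) and 0.22 ± 0.16 in BCBL1 (adjusted p = 0.547), a difference of 0.66 ± 0.23 (adjusted p = 0.330).

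WDR74, a factor of large subunit maturation, was the 1 member above 0 in both lines, with 7.11 and 7.09 under DMSO against 7.20 and 7.11 under lenalidomide in BC3. The nearest of these arrays, 7.11 and 7.114, almost touched. Its non-normalized intensities in BC3 overlapped, at 194.1 and 210.8 under DMSO and 227.6 and 194.7 under lenalidomide. In BCBL1, WDR74 had 7.09 and 7.19 under DMSO and 7.24 and 7.38 under lenalidomide. The change was 0.06 ± 0.12 (adjusted p = 0.858) and 0.17 ± 0.12 (adjusted p = 0.521), and neither passed. NOP2, a ribosomal RNA cytosine methyltransferase, changed by −0.43 and −0.26, and MRTO4, a relative of the stalk protein of the large subunit, by −0.39 and −0.01. BOP1 and PES1, which act in 1 complex on the large subunit, changed by −0.17 and −0.02 and by −0.08 and 0.07.

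The nucleotide, folate and methionine members were below 0 in 5 of 5 genes in each line (background 52.9% in BC3 and 52.2% in BCBL1). Their medians were −0.19 in BC3 and −0.16 in BCBL1. CAD, the enzyme of the first steps of pyrimidine synthesis, had levels of 8.89 and 8.76 under DMSO and 8.67 and 8.85 under lenalidomide in BC3, which overlapped. In BCBL1, CAD had 9.34 and 9.45 under DMSO and 9.05 and 8.93 under lenalidomide, with no overlap. The change was −0.07 ± 0.12 in BC3 (adjusted p = 0.835) and −0.41 ± 0.12 in BCBL1 (adjusted p = 0.111). SLC19A1, the reduced folate carrier, had 8.11 and 8.50 under DMSO and 8.06 and 8.13 under lenalidomide in BC3. In BCBL1, SLC19A1 had 8.77 and 8.68 under DMSO and 8.36 and 8.40 under lenalidomide, apart, a change of −0.35 ± 0.14 (adjusted p = 0.228) after −0.22 in BC3. MAT2A, which makes S-adenosylmethionine, changed by −0.34 and −0.16. PPAT, the enzyme of the committed step of purine synthesis, changed by −0.19 and −0.03, and NME1, a nucleoside diphosphate kinase, by −0.19 and −0.02.

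The growth, chaperone, import and repair members were below 0 in 8 of 9 genes in BC3 (median −0.21, background 52.9%). In BCBL1 they were below 0 in 9 of 9 (median −0.18, background 52.2%). By limma 0 were called in either line (background 1.18% lower and 3.19% higher in BC3, 0.731% and 2.15% in BCBL1). IPO4, an importin that carries histones and ribosomal proteins, had levels of 8.99 and 9.11 under DMSO and 8.47 and 8.71 under lenalidomide in BC3. In BCBL1, IPO4 had 8.69 and 8.59 under DMSO and 8.65 and 8.14 under lenalidomide. The change was −0.46 ± 0.16 in BC3 (adjusted p = 0.156), where the arrays did not overlap, and −0.24 ± 0.16 in BCBL1 (adjusted p = 0.495), where they did. HSPD1, the mitochondrial chaperonin, had 14.19 and 14.01 under DMSO and 14.05 and 14.25 under lenalidomide in BC3. In BCBL1, HSPD1 had 14.20 and 14.40 under DMSO and 14.01 and 14.13 under lenalidomide, lower on both arrays. Its change was 0.05 ± 0.13 in BC3 (adjusted p = 0.893) and −0.23 ± 0.13 in BCBL1 (adjusted p = 0.418).

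TFRC, the transferrin receptor, had the largest SE of the members, with 12.52 and 12.04 under DMSO against 12.55 and 11.36 under lenalidomide in BC3, a change of −0.33 ± 0.31. CDK4 changed by −0.23 in BC3 and −0.07 in BCBL1, HSPE1 by −0.23 and −0.27, and PA2G4, a growth-regulated RNA-binding protein, by −0.12 and −0.19. PHB1, prohibitin, which the arrays list under its older name PHB, changed by −0.21 and −0.05, TBRG4, a mitochondrial RNA factor, by −0.21 and −0.18, and APEX1 by −0.17 and −0.12.

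Members that held CACGTG had a median change of −0.23 in BC3 (17 genes) and those without it −0.28 (13 genes). In BCBL1 these medians were −0.12 and −0.18, close to each other in both lines. Across the 35 members the changes in BC3 and BCBL1 had a Pearson r of −0.266 and a Spearman rho of 0.0479, and of 0.088 and 0.143 over the 34 without NOC3L. Over all 12864 genes these were 0.437 and 0.305. The lines share no control array, and the points share array depth and the normalization. MYC itself had levels of 12.07 and 11.84 under DMSO and 11.60 and 11.68 under lenalidomide in BC3, and 11.13 and 11.30 under DMSO and 10.97 and 10.83 under lenalidomide in BCBL1. On this probe MYC changed by −0.31 ± 0.13 in BC3 (limma adjusted p = 0.230) and −0.32 ± 0.13 in BCBL1 (adjusted p = 0.231). The mean effect on this probe was −0.32 ± 0.09 (adjusted p = 0.0541). In the fit over all probes, the other MYC probe gave −0.15 in BC3 (adjusted p = 0.702) and −0.92 in BCBL1 (adjusted p = 0.00405). The mean effect on that other probe was −0.53 and passed the test (adjusted p = 0.00764).

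Several probes were kept for some members, and not all agreed in sign or call. In the fit over all probes, the other NOP16 probe changed by −0.57 in BC3 (adjusted p = 0.0201) and by 0.04 in BCBL1, so the BC3 fall was seen by both probes and the BCBL1 sign was not. The other POLR1B probe gave −0.54 and −0.40 and a mean effect of −0.47 (adjusted p = 0.0182), and the other NCL probe −0.18 in each line with a mean effect of −0.18 (adjusted p = 0.340). HSPD1 had 4 probes with changes of −0.16, 0.02, −0.40 and 0.05 in BC3 and all below 0 in BCBL1, and 1 of these gave a mean effect of −0.31 (adjusted p = 0.0449). NOP2 had 4 probes, which gave −0.02 to −0.49 in BC3 and −0.27 to 0.05 in BCBL1. In BCBL1 the probes of APEX1 gave −0.12 and 0.02, those of NME1 −0.07, −0.02 and 0.10, and those of TCOF1 −0.13 and 0.16. The mean effect of UTP20 was −0.08 on one probe and 0.004 on the other, and that of APEX1 was −0.145 and 0.0116. In BC3 the probes of APEX1 gave −0.168 and −0.00085, those of UTP20 −0.197 and −0.00818, and those of HSPE1 −0.226 and −0.825.

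Of 147 listed genes of RNA polymerase I, snoRNPs, both subunits' assembly, the RNA exosome and nucleotide synthesis, 141 were tested. Their median change was −0.16 in BC3 and −0.08 in BCBL1, with 117 and 97 below 0 (background 52.9% and 52.2%). In each line 0 of the 141 were called by limma at an adjusted p under 0.05. The background was 1.18% lower and 3.19% higher in BC3, and 0.731% and 2.15% in BCBL1. At an unadjusted p under 0.05, 28 (19.9%) were lower and 1 (0.709%) higher in BC3, against 7.92% and 8.88% of all genes. In BCBL1, 12 (8.51%) were lower and 3 (2.13%) higher, against 7.63% and 8.54%, so the lower count there was near the background. For the mean effect 7 of 141 fell (4.96%, background 2.40%) and 1 rose (0.709%, background 4.84%). The fallers were PFAS, a purine synthesis enzyme (−0.37, adjusted p = 0.0144), WDR75 (−0.34), EXOSC8 of the RNA exosome (−0.39), WDR36 (−0.36), TSR1 (−0.39), UBTF, the activator of ribosomal DNA transcription (−0.35), and RRP1B (−0.31). IMPDH1, an enzyme of guanine nucleotide synthesis, rose (0.31, adjusted p = 0.0404).

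Under DMSO the lines differed in the members' levels in both directions. BCBL1 was higher than BC3 for 9 of 35 members (background 20.0% of genes) and lower for 3 (background 20.5%), and the median difference, BCBL1 minus BC3, was 0.0982 against 0.00477 over all genes. At an unadjusted p under 0.05, 10 were higher (background 24.1%) and 5 lower (background 24.2%). The arrays did not overlap for 17 that were higher (background 34.9%) and 10 that were lower (background 35.0%), so the members differed between the lines about as often as other genes.

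BOP1 stood highest in BCBL1 against BC3, with log2 levels of 12.15 and 12.24 against 11.11 and 11.12 under DMSO, and 12.15 and 12.20 against 10.98 and 10.90 under lenalidomide. The difference under DMSO was 1.07 ± 0.11 (limma adjusted p = 6.09e-06). POLR1B was higher by 1.03 ± 0.16 (adjusted p = 0.000187), RRS1 by 0.62 ± 0.12 (adjusted p = 0.00111) and CAD by 0.57 ± 0.12 (adjusted p = 0.00238), at the levels given above. NOP2 had 11.79 and 11.70 in BCBL1 and 11.32 and 11.00 in BC3 under DMSO, and 11.65 and 11.34 against 10.63 and 10.83 under lenalidomide. Its difference was 0.58 ± 0.15 (adjusted p = 0.00650), lost without BC3 DMSO array b (0.43, adjusted p = 0.0870), and its other probes gave 0.66 to 1.02.

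Other members higher in BCBL1 were RRP12 (0.53, adjusted p = 0.00362), PPAT (0.44, adjusted p = 0.0390), SLC19A1 (0.41, adjusted p = 0.0277) and MYBBP1A (0.35, adjusted p = 0.0240). PPAT lost its call without either BC3 DMSO array (0.149 and 0.102) or BCBL1 DMSO array b (0.235), and MYBBP1A without any 1 of the 4 DMSO arrays (0.0501 to 0.112). SLC19A1 lost its call without BC3 DMSO array a, where the difference was 0.22 (adjusted p = 0.290), or either BCBL1 DMSO array (0.117 and 0.0608). NME1 differed by 0.25 (adjusted p = 0.110) on its brightest probe. In the fit over all probes, its other probes passed the test at 0.86 (adjusted p = 0.000235) and 0.59 (adjusted p = 0.00420). HSPD1 differed by 0.20 (adjusted p = 0.248) on its brightest probe. Its other probes gave 0.30 (adjusted p = 0.0571), 0.41 (0.0407) and 0.42 (0.05) in the fit over all probes.

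APEX1 stood lowest in BCBL1 against BC3, with levels of 11.63 and 11.40 against 12.80 and 12.91 in BC3 under DMSO, and 11.35 and 11.44 against 12.56 and 12.82 under lenalidomide. The difference under DMSO was −1.34 ± 0.13 (limma adjusted p = 3.44e-06), and its other probe gave −1.35. PPAN was lower by −0.92 ± 0.16 (adjusted p = 0.000575) and RRP9 by −0.40 ± 0.14 (adjusted p = 0.0374), the latter lost without either BC3 DMSO array (0.0997 and 0.145) or BCBL1 DMSO array b (−0.23, 0.296). IPO4 differed by −0.41 ± 0.16 (adjusted p = 0.0585). FBL had 12.11 and 11.85 in BCBL1 and 12.27 and 12.34 in BC3 under DMSO, and 11.84 and 11.99 against 11.88 and 11.98 under lenalidomide, a difference of −0.33 ± 0.13 under DMSO (adjusted p = 0.0541). It was −0.20 without BCBL1 DMSO array b and −0.46 without BCBL1 DMSO array a (adjusted p = 0.0298), and 5 of 20 alternatives called it, with adjusted p-values of 0.0252 to 0.330 over all 20. The remaining 21 members, NME1 and HSPD1 among them, did not pass the test on their brightest probe, with differences from −0.31 for NOC3L to 0.29 for TFRC.

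**Figure D5:**
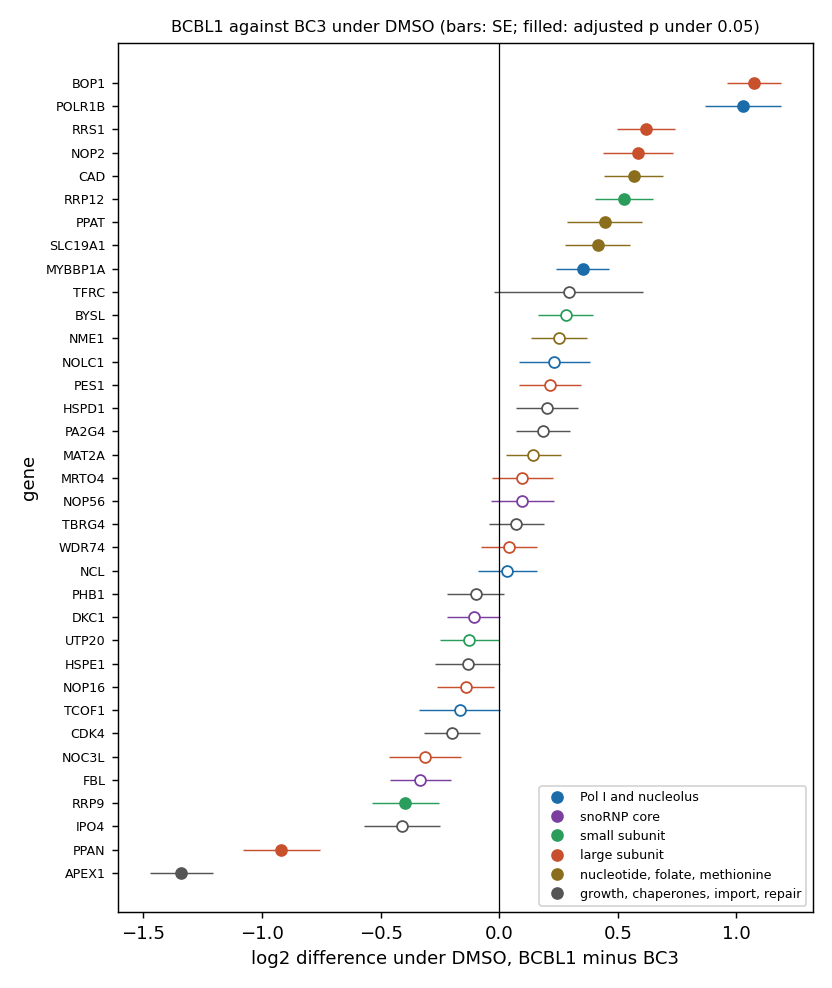
Difference in log2 level between BCBL1 and BC3 under DMSO for each of the 35 members, with its SE, ordered by size; filled points passed the test across all genes at an adjusted p under 0.05. The 9 higher members run from MYBBP1A at 0.35 to BOP1 at 1.07, and the 3 lower ones are APEX1 at −1.34, PPAN at −0.92 and RRP9 at −0.40.

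In the same comparison 44 of 141 pathway genes were higher in BCBL1 (31.2%, background 20.0%) and 10 lower (7.09%, background 20.5%), with a median of 0.17. FTSJ3, a ribosomal RNA methyltransferase, differed by 1.61, EXOSC4 by 1.42 and IMPDH1 by 1.23, while RRP7A and FCF1 of the small subunit differed by −1.10 and −0.92, all with adjusted p-values under 0.05. MYC was lower in BCBL1 under DMSO, by −0.74 ± 0.13 (adjusted p = 0.000482).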

How the data were processed

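Total RNA of BC3 and BCBL1 was read on 8 Illumina bead arrays, 2 per group, grouped by the submitters' sample titles. The authors deposited a table of non-normalized probe intensities and a table of normalized log2 values; limma is named in the submitters' processing notes, and no source used here gives their background correction or normalization. The intensity columns have no detection p-values. Of 47323 probes, 1 at 0 was left out. Intensities were background-corrected with normexp (offset 50), quantile-normalized and taken to log2 in limma 3.58.1 (R 4.3.3). The offset pulls small signals together, so fold changes of dim genes are understated. A probe was above background on an array where it lay in the upper 0.05 tail of a background described by the mode of that array's intensities, and 24523 probes (51.8%) above background on both arrays of a group were kept. Of the probes used, 30113 had 1 gene symbol, 8 had several and 17201 none. The brightest kept probe with 1 symbol stood for a gene, which gave 12864 genes.

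One mean for each of the 4 groups was fitted with limma across all genes, with moderated tests (4 residual and 8.77 prior degrees of freedom), Benjamini-Hochberg adjustment over all genes and a threshold of 0.05. Errors are standard errors. Probe levels are not compared between genes. A second fit averaged the arrays of a group and took the cell line as the replicate (1 residual and 8.81 prior degrees of freedom). Its p-values thus rest mostly on the spread pooled over all genes, not on each gene's own spread between the lines. Precision is limited by the number of arrays. The steps were tested on simulated data with changes set in BC3, in 50 of 12864 genes at each size. The simulated data gave 105 calls in BC3 against 562 in the main fit, so the shares called may differ in the data. The test called 4% of genes with a set log2 change of 0.25 and 22% with 0.5. It called 82% with a change of 1 and 96% with 2. A member with a small change that was not called may still have changed.

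Members and lists were chosen with earlier results of these data known. All members are accounted for; every array is given for members called in a lenalidomide comparison, for the 6 lowest and 3 highest changes in each line, the 3 largest differences between lines, and the 5 lowest and 5 highest differences under DMSO. For pathway genes, called genes with the largest changes are named. Promoter windows are RefSeq's, on GRCh38.p14, searched for CACGTG and CACGCG on both strands. Alternatives covered background correction, scaling, the filter, the choice of probe, the variance model, the deposited log2 table, each array left out in turn and the replicate number as a block.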

Additional observations from a re-analysis of the deposited data

Results flagged for a closer look

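The lenalidomide effect on NOC3L differed between the lines by the test of the difference itself: 1.48 ± 0.22 on the log2 scale for BCBL1 minus BC3 (1.477 before rounding; limma adjusted p = 0.00718). In BC3 both treated arrays lay below both controls, and in BCBL1 both lay above. All of this rests on 1 probe, the only kept probe of NOC3L. Its level under DMSO differed between the lines by −0.31 ± 0.15 (adjusted p = 0.123). The difference passed the test under 15 of 19 alternatives. It missed it without BCBL1 lenalidomide array b (adjusted p = 0.0509) and with the offset of 16, the deposited log2 table and the replicate block.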

How the results depend on the processing

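The members' median stayed below 0 in both lines and in the mean effect under all alternatives run, from −0.297 to −0.225 in BC3, −0.31 to −0.122 in BCBL1 and −0.289 to −0.185 for the mean, while the counts of called members moved. The cause of these moves was not tested. With a normexp offset of 16, 1 member was lower in BC3, 0 higher in BCBL1, 1 lower in the mean effect and 0 called for a difference between lines. Scaling to a common median, which moved the median of all genes in BCBL1 to −0.105 and in the mean effect to −0.0635, gave 2 lower and 0 higher in BCBL1, 8 lower in the mean effect and 3 with the line as the replicate. Under that scaling the medians were −0.31 in BCBL1, −0.289 in the mean effect and 0.0297 for the difference, and non-overlapping arrays numbered 0 higher in BC3, 1 higher in BCBL1, and 24 lower and 0 higher in the mean effect. Without background correction 4 were lower in BC3, 8 in the mean effect and 5 between the lines. The deposited log2 table gave 1 lower in BC3 (median −0.297), 0 higher in BCBL1 and 0 for the difference. With no filter, 2 members had higher non-overlapping arrays in BC3. Requiring background to be passed on all 8 arrays (34 members) gave 4 lower in BC3 and 5 in the mean effect, averaging a gene's probes gave 4 in BC3, and a variance trend gave 4 in BC3, 8 in the mean effect and 5 with the line as the replicate. Cyclic loess, the fit over all probes and fits of 4 arrays moved no count by over 1.5 times. Calls over all 12864 genes, in both directions, moved with the settings too. For the mean effect they numbered 931 in the main fit, 613 with the offset of 16 and 877 with median scaling. They were 1130 without background correction and 1047 with the variance trend. In BC3 all calls numbered 562 in the main fit, 339 with the offset of 16, 694 without background correction and 618 with the trend.

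With each array left out in turn, members called ranged over 0 to 2 lower in BC3, 0 to 1 higher in BCBL1, 1 to 4 lower in the mean effect and 0 to 1 for the difference. Between the lines they ranged over 2 to 4 lower and 6 to 9 higher, with a median of 0.083 to 0.196. The sign turned for HSPD1 in BC3 (−0.12 with a mean of probes, −0.0406 without DMSO array b, −0.046 without lenalidomide array b), CAD in BC3 (0.0199 without lenalidomide array a) and PPAN in BCBL1 (−0.0259 without lenalidomide array a). With single arrays left out, these 3 ranged up to 0.148, down to −0.158 and up to 0.474. NOC3L missed the threshold with the offset of 16 (adjusted p = 0.0537 in BC3, 0.0944 in BCBL1, 0.0788 for the difference), with the deposited log2 table (0.0614, 0.110 and 0.0901) and, in BCBL1, with median scaling (0.137). NCL in the mean effect also missed it with no filter (0.0571) and with a mean of probes (0.0841). PPAT between the lines missed it with the offset of 16 (0.0829), median scaling (0.0883), the deposited table (0.0946) and no filter (0.0567), and RRP9 with the offset of 16 (0.0605), the deposited table (0.0647) and no filter (0.0607). MYBBP1A missed it with median scaling (0.0769) and no filter (0.0507), and SLC19A1 with median scaling (0.100) and the deposited table (0.0526). NOC3L's difference also missed it without BCBL1 lenalidomide array b (0.0509). APEX1, BOP1, CAD, POLR1B, PPAN, RRP12 and RRS1 kept their call between the lines under all 20 alternatives.

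Same-numbered arrays shared little deviation on the deposited log2 table, with correlations of −0.0754 to 0.0456 over the 6 pairs of groups. These values cannot show whether the samples were handled in pairs. With the replicate number as a block, on the deposited log2 table, 0 members were lower in BC3 (median −0.297), 0 higher in BCBL1, 0 lower in the mean effect and 0 called for the difference. The block's adjusted p was 0.0593 for NOP16 in BC3. NPM1 was not above background, so no change in it could be measured.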

Other observations

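By chromosome, chosen after the values were seen, the members and pathway genes on chromosome 8 were all higher in BCBL1 than in BC3 under DMSO. BOP1 differed by 1.07, RRS1 by 0.62, EXOSC4 by 1.42, UTP23 by 1.10 and DCAF13 by 0.71. Of the 474 tested genes there 61.2% were higher, with a median of 0.13. Chromosome 15 had a larger median, 0.26, with 70.8% of 397 genes higher. NOP10 (0.21), IMP3 (0.59) and RSL24D1 (0.41) lie on chromosome 15. On chromosome 14, APEX1 differed by −1.34, FCF1 by −0.92, NOP9 by −0.70, IPO4 by −0.41, MTHFD1 by −0.17 and DDX24 by 0.09. The median of 398 genes there was −0.17, and 36.7% were higher in BCBL1.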
